A study of Danio rerio with 184 samples.

Results

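Lateral line hair cells from zebrafish larvae labelled as Emx2 mutant were divided by their own emx2 transcript, listed as EMX2 (ENSDARG00000039701), so the members were chosen by their emx2 UMIs. Of the 184 single cells of the series, 92 carried the mutant label, and each of these 92 had at least 1000 unique molecular identifiers (UMIs, tags that count original transcripts) outside the spike-in controls. The transcript was detected with 1 or more UMIs in 39 of these cells and with 0 UMIs in 53, and 13 of the 39 had 3 or more. The emx2 values below therefore describe the division and support nothing else. The 2 sides looked alike: ratios of most well-measured genes lay near 1, and across genes the ratios of one plate bore almost no relation to those of the other. A few named genes, the reporter transcript, the emx2-rich cells and 3 cells rich in support cell transcripts are described in turn.

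The mutant-labelled cells carried the genotype Tg[myo6b:actb1-EGFP] with Emx2-mutant, and the wild-type cells carried the same transgene alone. This reporter joins actb1 to EGFP under the promoter of myo6b, a hair cell gene. All larvae were 6 days post fertilization and received no treatment. Trunks were dissociated with enzymes, cells with green fluorescence were sorted, and transcripts were counted near their 3′ ends by mcSCRB-seq, a plate-based method. The labels describe no allele, and a 3′ tag does not show whether a transcript can make working protein, so emx2 UMIs check neither the label nor the loss of Emx2. The labels tie no cell to a larva, a clutch or a pool, and each genotype was taken as 1 sample. Cells of 1 sample are not replicates, and therefore no p-value is given and no difference has a replicate check. Intervals are at 95% and hold counting error alone, not the variation between cells or larvae.

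The homeobox protein Emx2 is a transcription factor that decides in which direction the hair bundle points. In a neuromast, the small sensory patch of the lateral line, hair cells arise as pairs of sisters with opposite bundle orientation, and Emx2 is normally made in only one sister of a pair. Notch signalling, in which a ligand on one cell activates a receptor on its neighbour and switches on her and hey repressor genes, acts between the sisters and keeps Emx2 off in the other. The series title names that relation as the subject of the study.

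Depth followed the plate, read from the first digit of the well code. Mutant-labelled cells had a median of 7560.5 UMIs on plate 2 and 3682.5 on plate 4. They filled well columns 1 to 6 and wild-type cells columns 7 to 12 on either plate, so genotype and side of the plate cannot be told apart. The 184 cell barcodes were all distinct. Transcripts of some hair cell genes were found in every cell of either side. The genes pvalb8, s100s, s100t, anxa5a and the otoferlin gene OTOF (ENSDARG00000020581) had a UMI in 39 of 39 cells with emx2 and in 53 of 53 without. They are part of a hair cell list of 21 measured genes, and a UMI does not by itself settle what a cell is. Few markers of blood cells could be checked. The leukocyte list, of which 3 genes are in the table, gathered 0 UMIs in cells with emx2 and 1 UMI in cells without. No gene of the erythroid list was matched, so transcripts of red blood cells were not examined.

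The share of cells with emx2 was close to the same on the plates. On plate 2, 20 of 46 mutant-labelled cells had emx2 (43.5%, interval 28.9 to 58.9). On plate 4 the transcript was found in 19 of 46 (41.3%, 27 to 56.8). Summed over the cells with emx2, its level in CPM, its UMIs scaled to the library size of those cells, was 275 (199 to 370) for plate 2 cells and 807 (619 to 1034) for plate 4 cells. In wild type the same sums were 116 CPM for plate 2 and 298 CPM for plate 4. These levels are taken over cells chosen for having a UMI, and 1 UMI is a larger CPM in a shallower cell, so levels on the shallower plate 4 and on plate 2 were not compared.

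Most cells with emx2 sat at the edge of detection. Of the 39, 18 cells had exactly 1 UMI and 8 had 2, and on the other side of the higher limit 3 cells had exactly 3. Highest was a cell of plate 4 with 10 emx2 UMIs among 3090 UMIs, or 3236 CPM. At the depth limit, the shallowest mutant-labelled cells had 1000 and 1086 UMIs, both with 0 emx2 UMIs, and the 2 wild-type cells left out had 712 and 866 UMIs. No mutant-labelled cell was left out for depth.

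Cells with 0 emx2 UMIs cannot be read as cells without the transcript. Taking 3 UMIs as the limit that a count of 0 allows, the median limit over the 53 cells was 546 CPM, against a median of 303 CPM in the 39 cells with emx2. In 49 of the 53 cells the limit lay above that median of the cells with emx2. No cell type known to lack emx2 was among the samples, and how many emx2 UMIs came from free RNA is unknown. Wild-type cells had emx2 in 36 of 90 cells (40%, 29.8 to 50.9), which is close to the mutant-labelled share of 42.4% (32.1 to 53.1). Thinning each cell to 2000 UMIs left emx2 in 25 of 89 mutant-labelled cells (28.1%, 19.1 to 38.6) and in 13 of 88 wild-type cells (14.8%, 8.11 to 23.9). Averaged over all possible draws the expected share was 24.9% of mutant-labelled cells and 16.7% of wild-type cells.

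**Figure D1:**
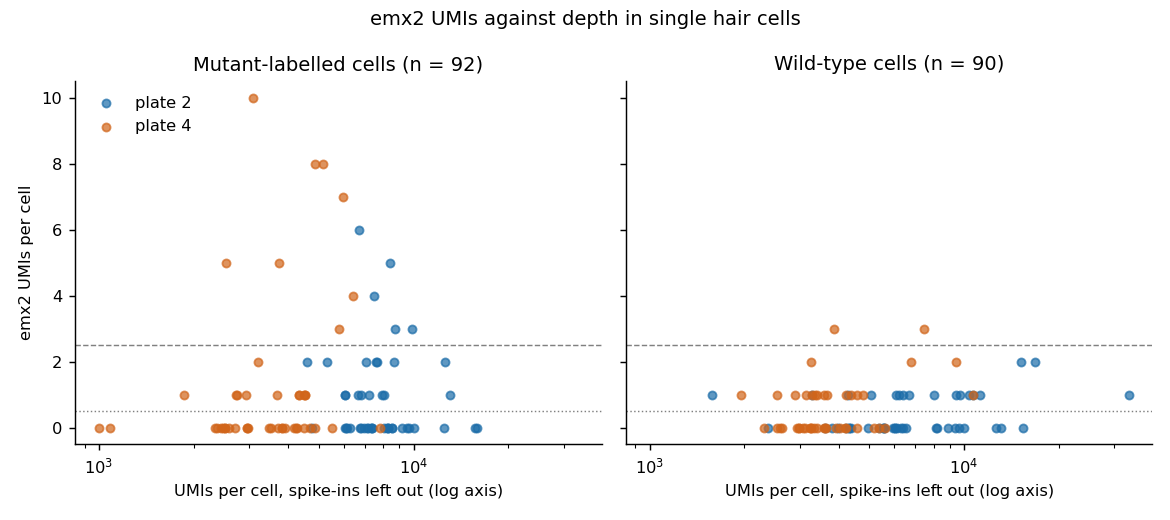
emx2 UMIs per cell (y axis) against all UMIs of that cell (x axis, log scale) in mutant-labelled cells (left) and wild-type cells (right), 1 point per cell, coloured by plate. The dotted line parts 0 from 1 or more UMIs and the dashed line marks 3 or more; 13 mutant-labelled cells and 2 wild-type cells lie above the dashed line, with at most 10 and 3 UMIs.

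The 13 cells with 3 or more emx2 UMIs held most of the transcript on plate 4. There, 8 cells held 50 of 62 emx2 UMIs (80.6%), with 3, 4, 5, 5, 7, 8, 8 and 10 UMIs each. On plate 2, 5 cells held 21 of 43 (48.8%), with 3, 3, 4, 5 and 6 UMIs each. Their depth had a lowest value of 2534, a median of 5955 and a highest of 9913 UMIs. By median they were deeper than the cells with 0 emx2 UMIs on either plate. The medians were 8412 against 7734.5 UMIs on plate 2 and 5000 against 3467 UMIs on plate 4. Their summed emx2 level was 901 CPM (703 to 1136), against 220 CPM (152 to 307) in the 26 cells with 1 or 2 UMIs. They lay in rows A, B, D and G of plate 2 and in rows A to E and G of plate 4, with at most 2 in a row of a plate. The 39 cells with emx2 numbered 1 to 5 in each row of a plate.

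The sides were close in depth and in the measures of cell state. Cells with emx2 had a lowest depth of 1859, a median of 5955 and a highest of 13108 UMIs, and cells without had 1000, 5495 and 15923 UMIs. Within plate 2 the medians were 7560.5 UMIs in cells with emx2 and 7734.5 in cells without. On plate 4 they were 4320 and 3467 UMIs, so the deeper side was the one with emx2 there. A cell with emx2 had a median of 1383 detected genes and one without had 1283. Transcripts of the calcium buffer gene pvalb8 made up a median of 24.7% of UMIs in cells with emx2 and 23.9% in cells without. Ribosomal protein genes made up 3.09% and 3.05%, and genes of the mitochondrial genome 5.85% and 5.91%, in cells with and without emx2. Spike-in controls took 3.38% and 3.2%. Cells under 20% pvalb8 numbered 5 of 39 with emx2 and 9 of 53 without. The wild-type sides, whose ratios are set beside these below, differed more. There 15 of 36 cells with emx2 and 11 of 54 without were under 20% pvalb8. Ribosomal protein genes had wild-type medians of 3.71% and 3.17% with and without emx2. The deepest wild-type cell with emx2 had 33325 UMIs, and the deepest without had 15428. The part of this in the wild-type ratios was not tested.

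Across genes, ratios near 1 were the rule once enough UMIs were counted. The ratio is the CPM of the summed UMIs of the 39 cells with emx2 over that of the 53 cells without, and a gene was measured with 10 or more UMIs over both sides. Of 4408 genes measured besides emx2, 628 (14.2%) had a ratio of 2 or more and 700 (15.9%) a ratio of 0.5 or less. Most of these rested on few UMIs: among 1135 genes with 50 or more UMIs, 54 (4.76%) passed 2-fold either way, and among 290 genes with 200 or more, 3 did (1.03%). The counting interval lay above 1 for 9.46% of measured genes and below 1 for 9.64%, so a single interval that leaves out 1 is common here. All genes measured had a median log2 ratio of -0.06 (-0.08 to -0.02). Of them, 47.9% were above 1 and 52.1% below, and the counts of list members below stand beside these shares.

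The 3 abundant genes past 2-fold, which were singled out after their values were seen, each rested largely on 1 cell. PCBP4, an RNA-binding protein gene, had 1979 CPM in cells with emx2 and 471 CPM in cells without, and 313 of its 462 UMIs in cells with emx2 came from 1 cell. The liprin-beta gene ppfibp2a had 1041 and 295 CPM in cells with and without emx2, and 170 of 243 UMIs came from 1 cell. For vipb, which encodes a neuropeptide precursor, the levels were 313 CPM in cells with emx2 and 1003 CPM in cells without, and 206 of 313 UMIs on the side without emx2 came from 1 cell. Each was near 1 on one of the plates, with ratios of 1.03 for PCBP4 on plate 4, 0.95 for ppfibp2a on plate 2 and 0.97 for vipb on plate 4.

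Ratios on one plate did not carry over to the other. Over the 1135 genes with 50 or more UMIs, the log2 ratios of plate 2 and plate 4 had a Pearson r of 0.040 and a Spearman rho of 0.034, and 581 genes (51.2%) lay on the same side of 1. These are correlations across genes, which are not independent replicates; the plates share no cells, and the genes of a plate share its libraries. With 200 or more UMIs, r was -0.035 over 290 genes. In wild-type cells divided the same way, r between plates was 0.072 over 1166 genes with 50 or more UMIs and 0.328 over 316 genes with 200 or more. Mutant-labelled and wild-type ratios had an r of -0.033 over 1016 genes with 50 or more UMIs in each genotype.

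**Figure D2:**
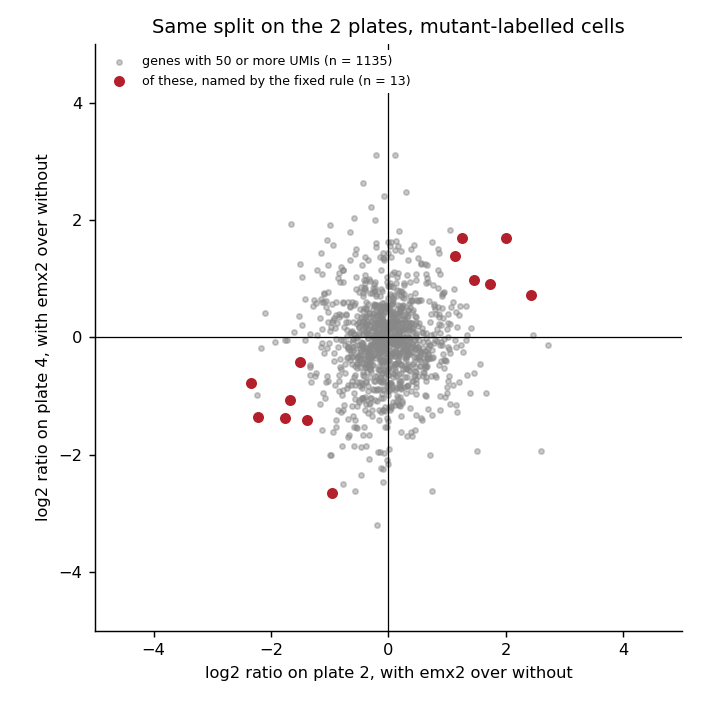
log2 ratio of cells with emx2 over cells without, on plate 2 (x axis) and plate 4 (y axis), for the 1135 genes with 50 or more UMIs in mutant-labelled cells; each point is a gene and the 13 red points are genes named by the rule that required the same side on both plates. The cloud shows no slope (r = 0.040), and the red points lie in the corners because the rule put them there.

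Polarity genes were few in UMIs and mostly above 1. Of 7 measured genes for bundle orientation and planar polarity, 6 had ratios above 1 and 1 below, where 47.9% of all measured genes were above 1; 3 were above 1 on both plates, as were 21.2% of all genes, while 25.1% were below 1 on both. Their median log2 ratio was 0.37 (-1.99 to 1.91). It was -1.39 over the 3 of them measured with 3 or more emx2 UMIs against 0, and -0.53 when emx2 was called after thinning to 2000 UMIs, so the direction was not kept. The gene gnai1, for the inhibitory G protein subunit that marks the bare zone beside the bundle, had 223 CPM in cells with emx2 and 112 CPM in cells without. Its ratio was 1.99 (1.27 to 3.14), with 2.6 on plate 2, 1.03 on plate 4 and 0.69 (0.43 to 1.09) in wild type.

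The core planar polarity genes did not move as 1 group. PRICKLE2 had 94.2 CPM in cells with emx2 and 22.4 CPM in cells without, a ratio of 4.2 (1.73 to 11.6) that was 5.87 on plate 2 and 0.61 on plate 4. PRICKLE1 (ENSDARG00000045694) had a ratio of 1.13 (0.46 to 2.74). The membrane partner of prickle proteins, VANGL2, went the other way, with 2 UMIs in cells with emx2 and 14 in cells without, in 2 and 8 cells, and a ratio of 0.19 (0.02 to 0.83). In wild type the VANGL2 ratio was 1.14 (0.30 to 4.26). These genes had at most 29 UMIs each.

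Notch ligands were scarce on either side. Of 8 ligand genes in the table, 2 had 10 or more UMIs. The gene jag2b had 137 CPM in cells with emx2 and 106 CPM in cells without, a ratio of 1.3 (0.77 to 2.17), at 1.4 for plate 2 and 0.91 for plate 4. For dll4 the levels were 64.3 and 44.9 CPM with and without emx2, a ratio of 1.43 (0.64 to 3.2), at 0.97 for plate 2 and 7.27 for plate 4. The pair of DLL1 rows, which stand for zebrafish Delta genes, had 1 UMI in all in cells with emx2 and 4 UMIs in cells without. No ligand differed between the sides beyond its counting interval. Of 16 genes for Notch receptors and their modifiers in the table, 2 had 10 or more UMIs. Both had ratios past 2 with intervals above 1, and 1 was above 1 on both plates. Among all genes, 14.2% had a ratio of 2 or more. Summed, this list had 51 and 30 UMIs with and without emx2, a ratio of 2.27 (1.42 to 3.69). In wild type its ratio was 0.82 (0.45 to 1.5). The modifier gene LFNG is a member of this list. In cells with emx2, 17 LFNG UMIs were in 1 cell rich in support cell transcripts. Without the 3 cells rich in such transcripts, described below, the LFNG ratio was 1.1 (0.27 to 4.32).

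Notch target genes gave no common direction. Of 9 measured targets, 3 had ratios above 1 and 6 below, with a median log2 ratio of -0.28 (-0.66 to 1.36). The most counted was her4.5, a repressor gene that Notch activates, with 98.5 CPM in cells with emx2 and 131 CPM in cells without, a ratio of 0.75 (0.43 to 1.28). Its neighbour her4.2 had 81.4 and 70.5 CPM with and without emx2, a ratio of 1.15 (0.59 to 2.23). The her4 copies are near-identical, so reads may have been split between them. NRARP (ENSDARG00000091419), a feedback inhibitor of Notch, had 11 UMIs in cells with emx2 and 1 in cells without, and 10 of the 11 were in 1 cell.

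Much of the Notch target signal lay in 3 cells that were rich in support cell transcripts. Support cells surround hair cells in a neuromast and are where Notch targets are chiefly active. These 3 cells, all of plate 4, exceeded 5000 CPM over the support cell list, while the next cell had 4407 CPM; the limit was set after the values were seen. They held 95 of the 215 Notch target UMIs of mutant-labelled cells (44.2%). The first had 7 emx2 UMIs, 44 Notch target UMIs and 90 support list UMIs, among them 17 of LFNG, a glycosyltransferase that modifies Notch receptors, and 13 of FNDC7. The other 2 had 0 emx2 UMIs, with 20 and 31 Notch target UMIs and 63 and 28 support list UMIs. In all 3, pvalb8 was at 17%, 17.3% and 17.6% of UMIs, below the median of either side.

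Without those 3 cells, which leaves 38 cells with emx2 and 51 without, the Notch target list summed to 220 CPM in cells with emx2 and 233 CPM in cells without, a ratio of 0.94 (0.64 to 1.37). With them the sums were 403 and 388 CPM in cells with and without emx2, a ratio of 1.04 (0.78 to 1.37). LFNG, at 94.2 CPM with emx2 and 32.1 CPM without (ratio 2.94, 1.34 to 6.95), came to 5 UMIs with emx2 and 6 UMIs without once the 3 cells were left out, a ratio of 1.1 (0.27 to 4.32). The ratio of her4.5 was then 0.49 (0.20 to 1.1). LFNG is on the support cell list by which those 3 cells were picked, so its fall without them was partly set by that choice. As a whole the support cell list was level, with 12 measured genes, 6 above and 6 below 1, and a median log2 ratio of -0.07 (-1.02 to 0.77). Its sum per cell ran over 728, 1485 and 15113 CPM (lowest, median, highest) in cells with emx2 and over 0, 1633 and 8028 CPM in cells without. Of the epidermis list, 14 of 14 genes had a UMI, and its sum per cell ran over 364, 1598 and 4657 CPM with emx2 and over 0, 1735 and 5668 CPM without. Of the muscle list, 24 of 24 genes had a UMI, at 0, 1270 and 3468 CPM with emx2 and 319, 1140 and 6787 CPM without. The part of such transcripts in the ratios of other genes was not tested.

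Hair cell transcription factors lay near 1. Of 17 measured, 7 were above and 10 below 1, with a median log2 ratio of -0.15 (-0.36 to 0.09). ATOH1, which starts hair cell fate, had 72.8 CPM in cells with emx2 and 70.5 CPM in cells without, a ratio of 1.03 (0.52 to 2.04). The zinc finger gene gfi1aa had 368 and 420 CPM with and without emx2, a ratio of 0.88 (0.66 to 1.16). POU4F3, needed for hair cell survival, had 116 and 86.6 CPM, a ratio of 1.34 (0.75 to 2.37). EYA1, a transcriptional co-activator, was the one whose interval lay below 1, at 266 CPM with emx2 and 391 CPM without, a ratio of 0.68 (0.49 to 0.93), at 0.63 for plate 2 and 0.85 for plate 4.

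The other homeobox genes were level as well. Of 15 measured, 6 were above and 9 below 1, with a median log2 ratio of -0.10 (-0.29 to 0.40). POU4F1 had 326 CPM in cells with emx2 and 378 CPM in cells without, a ratio of 0.86 (0.64 to 1.16). HMX2, an inner ear and lateral line factor, had 193 and 151 CPM, a ratio of 1.28 (0.83 to 1.97). LHX4 stood above 1 with 16 and 7 UMIs in cells with and without emx2, a ratio of 3.05 (1.19 to 8.78), and 9 of the 16 UMIs were in 1 cell. Its wild-type ratio was 4.55 (1.47 to 18.7).

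Mechanotransduction and bundle genes leaned below 1, though few intervals left out 1. Of 26 measured, 9 were above and 17 below 1, where 52.1% of all genes were below, and the median log2 ratio was -0.26 (-0.55 to 0.31). TMC2 (ENSDARG00000030311), a channel subunit, had 270 CPM in cells with emx2 and 398 CPM in cells without, a ratio of 0.68 (0.49 to 0.93), with 0.73 on plate 2, 0.55 on plate 4 and 0.78 (0.57 to 1.07) in wild type. Its second copy, TMC2 (ENSDARG00000033104), had a ratio of 1.25 (0.73 to 2.14). GRXCR1, which shapes the bundle, had 124 and 54.5 CPM with and without emx2, a ratio of 2.28 (1.21 to 4.42), with 2.16 on plate 2 and 2.42 on plate 4. Its ratio in the 13 cells with 3 or more emx2 UMIs was 0.93.

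Ribbon synapse genes leaned below 1 over all cells, but not in each setting, and the most counted gene of the group lay close to 1. Of 16 measured, 5 were above and 11 below 1, where 52.1% of all genes were below. The median log2 ratio was -0.47 (-1.50 to 0.17). On both plates 5 were below 1 and 0 above, against 25.1% and 21.2% of all genes. The interval lay below 1 for 4, against 9.64% of all genes. The median was 0.08 against cells without emx2 matched in depth, and 1 of 20 other settings had the other sign. For plate 4 it was -0.03 over the genes measured on that plate alone and -0.32 over all 16. Otoferlin, the calcium sensor of the ribbon synapse, listed as OTOF (ENSDARG00000020581), had 1761 CPM in cells with emx2 and 1795 CPM in cells without, a ratio of 0.98 (0.86 to 1.12). PCLO, a scaffold of the active zone, had 17.1 and 103 CPM, a ratio of 0.17 (0.04 to 0.47), and in wild type 1.66 (0.78 to 3.66). The vesicle gene vamp2 had 81.4 and 160 CPM with and without emx2, a ratio of 0.51 (0.28 to 0.88), with 0.41 on plate 2, 0.64 on plate 4 and 0.70 (0.39 to 1.21) in wild type.

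Calcium-binding genes, which include the best counted gene of these cells, lay slightly above 1. Of 12 measured, 9 were above and 3 below 1, where 47.9% of all genes were above. The median log2 ratio was 0.11 (-0.02 to 0.27), and -0.11 in wild type. The interval lay above 1 for 5, against 9.46% of all genes. On both plates 6 were above 1 and 0 below, against 21.2% and 25.1% of all genes. The ratio of pvalb8 was 1.04 (1.03 to 1.05) on the strength of 55004 and 70623 UMIs with and without emx2, and in wild type it was 0.90 (0.89 to 0.91). The S100 family gene s100s had 4271 CPM in cells with emx2 and 3536 CPM in cells without, a ratio of 1.21 (1.11 to 1.32), at 1.22 for plate 2 and 1.2 for plate 4. In wild type the s100s ratio was 0.91 (0.83 to 1).

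Cilium genes split evenly, with 21 of 41 above 1 and 20 below, and a median log2 ratio of 0.09 (-0.37 to 0.37). TEKT3, a filament protein of ciliary microtubules, had 814 CPM in cells with emx2 and 510 CPM in cells without, a ratio of 1.6 (1.29 to 1.98), but 2.52 on plate 2 and 0.98 on plate 4. BBS5, of the complex that carries cargo into cilia, had 55.7 and 151 CPM, a ratio of 0.37 (0.18 to 0.69), with 0.48 on plate 2 and 0.20 on plate 4. In wild type the TEKT3 ratio was 0.70 (0.55 to 0.89) and that of BBS5 was 1.27 (0.63 to 2.6).

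General programmes of the cell were mostly level. Nuclear genes of oxidative phosphorylation split as 37 above and 37 below 1 of 74, with a median log2 ratio of 0.01 (-0.12 to 0.11). Ribosomal protein genes split as 31 above and 44 below of 75, with a median of -0.07 (-0.11 to 0.06), and the same genes had a median of 0.34 in wild type. Stress and immediate early genes split as 13 above and 14 below of 27. Among them the chaperone gene HSP90AB1 had 942 CPM in cells with emx2 and 1324 CPM in cells without, a ratio of 0.71 (0.60 to 0.84), with 0.75 on plate 2, 0.63 on plate 4 and 1.1 (0.93 to 1.3) in wild type. JUND had 0 UMIs in cells with emx2 and 10 in cells without. Genes of the mitochondrial genome split as 7 above and 4 below of 11, and Wnt and Fgf signalling genes as 5 and 5 of 10. Guidance and adhesion genes split as 5 and 3 of 8, and apoptosis genes as 4 and 4 of 8. Actin-binding genes split as 10 and 12 of 22, but their median log2 ratio was -0.30 (-0.66 to 0.37). On both plates 1 of them was above 1 and 5 below, against 21.2% and 25.1% of all genes. Their interval lay above 1 for 2 and below 1 for 4, against 9.46% and 9.64% of all genes. In 4 of 20 other settings their median had the other sign.

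**Figure D3:**
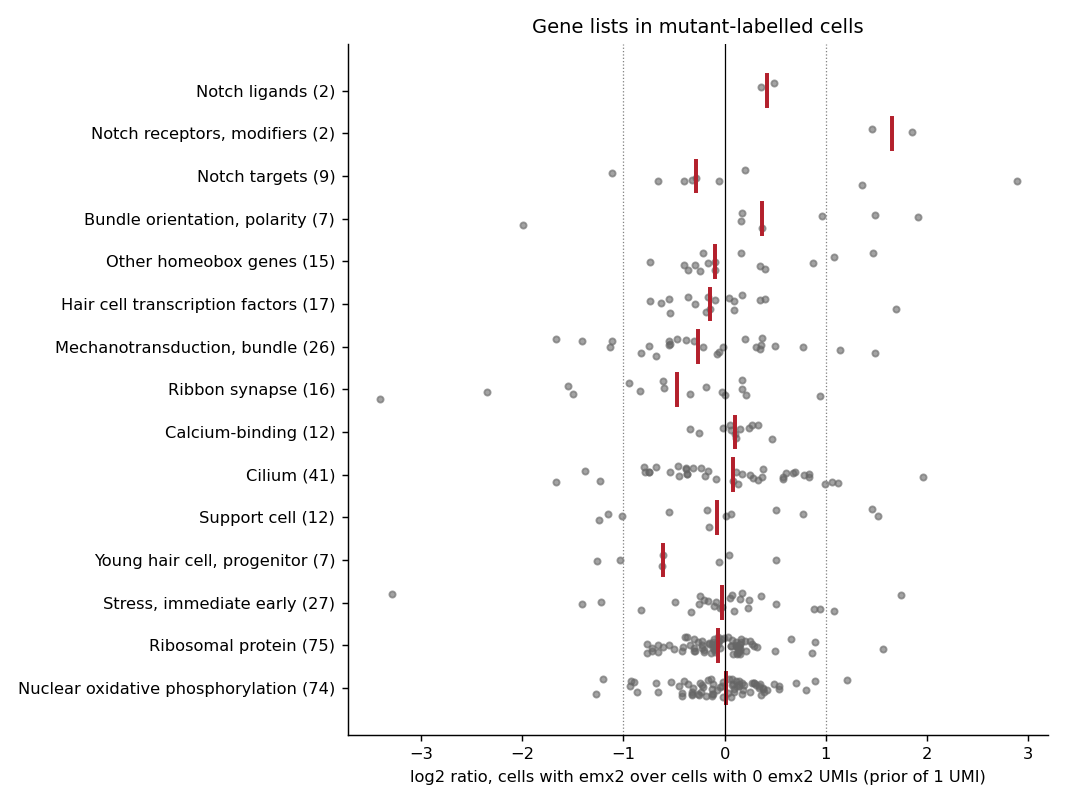
log2 ratio (x axis, prior of 1 UMI per side) of each measured gene of 15 lists in mutant-labelled cells, with emx2 over without; each grey point is a gene, the red bar is the median of the list, the number of genes stands beside its name, and dotted lines mark 2-fold. Medians of the lists with 12 or more genes lie between -0.47 (ribbon synapse) and 0.11 (calcium-binding).

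A fixed rule picked the genes named for their ratio. On the higher side it asked for 30 or more UMIs, seen in 10% or more of the cells, with a ratio past 2, the same side of 1 on both plates, and a ratio that stayed past 2 without the highest cell and past 1.5 as a mean over cells. It took 11 genes higher and 32 lower in cells with emx2. The minimum of 30 UMIs is 129 CPM in the cells with emx2 and 96.2 CPM in the more numerous cells without. Its part in the unequal counts was not tested. Among all genes, 8.87% were past 2-fold and above 1 on both plates, and 10.3% past 2-fold and below 1 on both. Applied to wild-type cells, the rule took 35 higher and 40 lower, where 15.5% of all measured genes had a ratio of 2 or more and 16.2% of 0.5 or less. With so few genes taken, 0 were shared between the genotypes on the same side, which says little.

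The gene highest in rank among the 11 was SPAG6, which encodes a protein of the central apparatus of motile cilia. It had 236 CPM in cells with emx2 and 57.7 CPM in cells without, a ratio of 4.08 (2.36 to 7.39), with 4.31 on plate 2 and 3.64 on plate 4. A SPAG6 UMI was present in 22 of 39 cells with emx2 and in 13 of 53 without. Per cell its level ran from 0 over a median of 131 to a highest of 1820 CPM in cells with emx2, and from 0 over a median of 0 to 817 CPM in cells without, so the cells of the sides overlapped widely. When emx2 was called after thinning to 2000 UMIs, the SPAG6 ratio was 1.69, under the limit of 2. In wild type it was 0.58 (0.37 to 0.88), with 0.38 on plate 2 and 0.93 (0.48 to 1.79) on plate 4.

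The other 10 genes varied in function. UBE2D3, a ubiquitin-conjugating enzyme, had a ratio of 4.25 (2.11 to 9.28), and PSMA6 (ENSDARG00000013966), a proteasome subunit, had 2.67 (1.48 to 5). TOMM22, an import receptor of the mitochondrial outer membrane, had 3.14 (1.74 to 5.92), and SLC25A12, a mitochondrial carrier, had 2.86 (1.47 to 5.84). The large ribosomal subunit gene RPL14 had 3.12 (1.66 to 6.15). Others were parp6b, of the ADP-ribosyltransferase family, at 3.79 (1.91 to 8.03), FRMD4B (ENSDARG00000074599) at 4.01 (1.91 to 9.19) and si:ch211-214j24.10 at 2.67 (1.53 to 4.83). CAB39L, a kinase scaffold, at 3.09 (1.68 to 5.95), had 1 UMI in cells with emx2 and 0 without on plate 2, and arhgef49, at 2.96 (1.53 to 6.02), had 1 UMI on each side on plate 4. SLC25A12 had 3 UMIs on each side there, so for these 3 genes 1 plate carried the ratio.

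Of the 32 lower genes, the 12 first in rank had ratios of 0.15 to 0.36. The Golgi transport GTPase gene arf1 had 4 UMIs in cells with emx2 and 35 in cells without, a ratio of 0.15 (0.04 to 0.43). Secretory pathway genes included OSTC, of the enzyme that attaches sugar chains in the endoplasmic reticulum, at 0.22 (0.09 to 0.47), and SDF2L1, which works with chaperones there, at 0.30 (0.14 to 0.61). In OSTC, 20 of the 48 UMIs on the side without emx2 were in 1 cell. The translation factor gene EIF3CL had 0.20 (0.06 to 0.52) and the splicing factor gene srsf2a had 0.36 (0.19 to 0.64). The remaining members were PCLO, given above, si:dkey-40c11.2 at 0.23 (0.09 to 0.49), the calcium buffer gene pvalb5 at 0.26 (0.10 to 0.59), the sodium pump subunit gene ATP1B1 (ENSDARG00000076833) at 0.28 (0.10 to 0.63) and spa17, a sperm and cilium protein gene, at 0.33 (0.17 to 0.62).

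MAF1 and tmsb1 were the named lower genes whose wild-type interval also lay below 1. MAF1, a repressor of RNA polymerase III, had 103 CPM in cells with emx2 and 301 CPM in cells without, a ratio of 0.34 (0.21 to 0.54), with 0.30 on plate 2 and 0.45 on plate 4. In wild type its ratio was 0.50 (0.33 to 0.76), at 0.61 for plate 2 and 0.34 for plate 4. The actin-binding gene tmsb1 had 38.6 and 141 CPM with and without emx2, a ratio of 0.27 (0.12 to 0.57), and in wild type 0.30 (0.07 to 0.95). A tmsb1 UMI was present in 9 of 39 cells with emx2 and 13 of 53 without, so the shares of cells were alike, and 11 of the 44 UMIs without emx2 were in 1 cell.

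**Figure D4:**
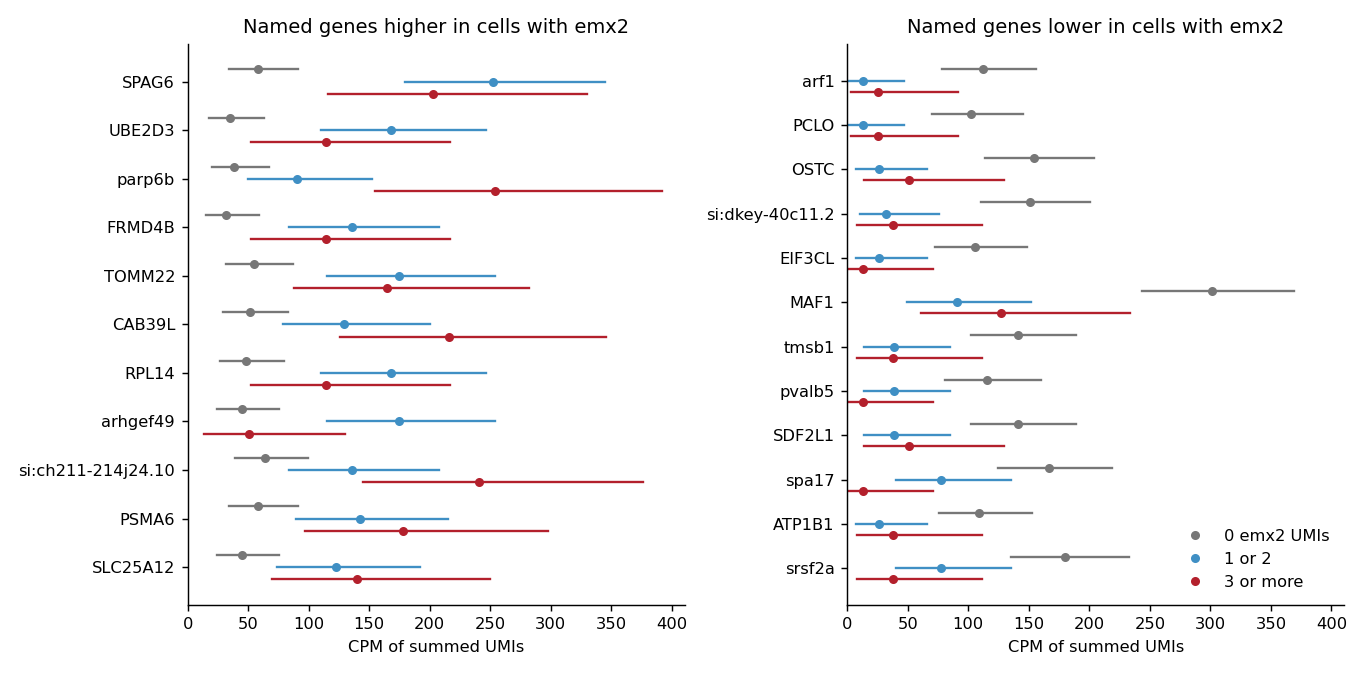
CPM of summed UMIs (x axis) of the 11 named higher genes (left) and the 12 named lower genes (right) in mutant-labelled cells with 0 (grey, 53 cells), 1 or 2 (blue, 26 cells) and 3 or more (red, 13 cells) emx2 UMIs; bars are exact Poisson 95% intervals. SPAG6 was at 57.7, 252 and 203 CPM over the classes, while arhgef49 was at 44.9, 175 and 50.7 CPM.

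Between cells with 1 or 2 emx2 UMIs and cells with 3 or more, the levels of the named genes went both ways. SPAG6 was at 57.7 CPM (34.2 to 91.2) with 0 emx2 UMIs, 252 CPM (179 to 345) with 1 or 2, and 203 CPM (116 to 330) with 3 or more. In contrast parp6b was at 38.5, 90.6 and 254 CPM over the same classes, and spa17 at 167, 77.6 and 12.7 CPM. The 3 levels of these last genes were in order of the emx2 class, and arhgef49, at 44.9, 175 and 50.7 CPM, was not. Other named genes were of both kinds. The rule picked genes that differ between cells with 0 emx2 UMIs and all cells with emx2, so it set the place of the 0 class. Cells with 1 or 2 emx2 UMIs gave 154584 UMIs to that comparison and cells with 3 or more gave 78843, so the former weighed more in the pick. The order of the classes therefore cannot show whether the ratios follow the emx2 level.

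The 13 cells with 3 or more emx2 UMIs were compared with the 53 cells at 0 in their own right. Of 3576 genes with 10 or more UMIs over these cells, 467 (13.1%) had ratios of 2 or more and 1008 (28.2%) of 0.5 or less, and 40.9% were above and 59.1% below 1. This side has 78843 UMIs against 311937, and the median log2 ratio of all genes was -0.22. The part of the smaller sum in these shares was not tested. Lists went both ways. Hair cell transcription factors were below 1 in 13 of 16 members measured here (median -0.73), mechanotransduction genes in 17 of 20 (median -0.46) and ribbon synapse genes in 10 of 13 (median -1.06). Calcium-binding genes were above 1 in 9 of 12 (median 0.13), stress genes in 16 of 24 (median 0.18) and support cell genes in 7 of 10 (median 0.24). Notch targets were above 1 in 6 of 6 (median 0.44), and the support-rich cell with 7 emx2 UMIs, which held 44 Notch target UMIs, is one of the 13 cells. OTOF (ENSDARG00000020581) had a ratio of 0.76, from 1370 CPM with 3 or more emx2 UMIs and 1795 CPM with 0.

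The reporter transcript was higher in cells with emx2 in each of the 4 divisions made, by plate and genotype. In mutant-labelled cells GFP had 625 CPM with emx2 and 455 CPM without, a ratio of 1.37 (1.08 to 1.74), at 1.29 (0.96 to 1.72) for plate 2 and 1.56 (1.02 to 2.39) for plate 4. Per cell it ran over 0, 571 and 2203 CPM (lowest, median, highest) in cells with emx2 and over 0, 398 and 1633 CPM in cells without, so the cells overlapped. In wild type GFP had 1038 and 629 CPM with and without emx2, a ratio of 1.65 (1.36 to 2.01), at 1.45 for plate 2 and 2.06 for plate 4. By emx2 class the reporter was at 455, 666 and 545 CPM with 0, 1 or 2, and 3 or more UMIs, not in order of the count. The ratio to cells with 0 was 1.46 (1.12 to 1.9) with 1 or 2 UMIs and 1.2 (0.83 to 1.7) with 3 or more. These intervals overlap, so the order of the 2 classes is not settled.

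The gene whose promoter drives the reporter did not behave alike in the genotypes. MYO6 (ENSDARG00000042141) had 480 CPM in mutant-labelled cells with emx2 and 558 CPM in those without. The ratio was 0.86 (0.67 to 1.1), against 1.74 (1.31 to 2.32) in wild type. The wild-type sides also differed in their shares of cells under 20% pvalb8, as given above, and the part of this was not tested. Lying above 1 in every division is not rare: of 273 genes with 200 or more UMIs in each genotype, 20 (7.33%) were above 1 in all 4 divisions and 16 (5.86%) were below, with GFP among the 20. Without the 3 cells rich in support cell transcripts, the mutant-labelled GFP ratio was 1.4 (1.1 to 1.78).

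**Figure D5:**
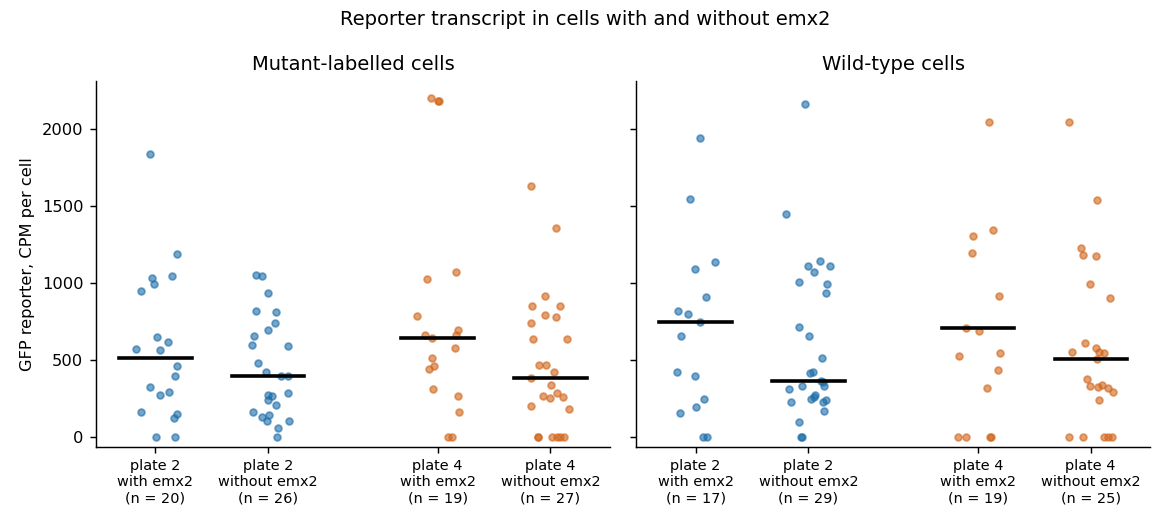
GFP reporter in CPM per cell (y axis) for cells with and without emx2 on each plate, in mutant-labelled (left) and wild-type (right) larvae; each point is a cell and the black bar is the median of its column. The medians over both plates were 571 CPM with emx2 and 398 CPM without in mutant-labelled cells, and the points of the columns overlap.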

How the data were processed

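UMI counts were deposited as whole numbers per gene and cell, whose totals differ between cells, so they were taken as not normalized. They come from mcSCRB-seq of sorted single cells, per the labels. The submitters' processing notes name STAR 2.6.0a and the build GRCz11, and no source used here names the counting tool. The table holds 12409 rows and 184 cells. Of 12354 Ensembl rows, 11707 had a symbol in the table used here, many of them human-style; 54 spike-in rows, 5.15% of UMIs, stayed out of all sums. Well codes gave the plates. Doublets were not called. Cells were sorted as 1 per well, and whether any well held more than 1 cell was not tested.

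UMIs were summed over the cells of a side and scaled to CPM. Ratio intervals are exact conditional and share intervals exact binomial (Clopper-Pearson). Log2 ratios used a prior of 1 UMI per side. A list's median carries a binomial interval, or the range under 6 members. With 1 sample per genotype no test was run. The cells, the 29 gene lists and the naming rule were chosen with earlier results of these data known. Besides the genes picked by ratio, a list's 3 most counted members, and its 3 most extreme ratios given 20 UMIs, were open to naming, and further list members were named for their role after their values were seen. The ratio step was tested on simulated Poisson counts. These held no variation between cells of a side beyond depth and counting error, so the intervals were not tested against such variation. Ligands dla and dld appear as DLL1; the symbol DLD (61 UMIs with emx2, 66 without) was read as the human-style name of a metabolic enzyme and not counted as a ligand. TMM factors of edgeR 4.0.16 and size factors of DESeq2 1.42.0 served as scaling alternatives on the 2 summed libraries. R 4.3.3 and, under Python 3.11.15, pandas 2.3.3, scipy 1.17.1, numpy 2.4.6 and matplotlib 3.10.9 were used.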

Additional observations from a re-analysis of the deposited data

Results flagged for a closer look

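SPAG6 and spa17, both genes of cilia or flagella, had ratios on opposite sides of 1 in the genotypes, each on the same side on both plates, although on plate 4 spa17 had only 1 UMI with emx2 and 2 without in mutant-labelled cells, and 1 on each side in wild type. SPAG6 had a ratio of cells with emx2 over cells without of 4.08 (2.36 to 7.39) in mutant-labelled cells and 0.58 (0.37 to 0.88) in wild-type cells. The mutant-labelled ratio was 1.69 when emx2 was called after thinning to 2000 UMIs, and the wild-type ratio was 0.38 on plate 2 and 0.93 (0.48 to 1.79) on plate 4. For spa17 the ratio was 0.33 (0.17 to 0.62) in mutant-labelled cells and 2.28 (1.13 to 4.82) in wild-type cells. The difference between the genotypes was not tested, because each is 1 sample.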

How the results depend on the processing

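No paired analysis was possible because the labels give no replicate numbers that link cells and no test was run. List medians were not stable in sign. Of 420 medians of 21 lists under other settings, 83 had the other sign. In all of these settings 3 lists (calcium-binding, mechanotransduction and ribosomal protein genes) kept theirs. For mechanotransduction genes on plate 2 this hung on the genes kept. The median was -0.14 over the 21 genes measured on that plate alone, but 0.12 over all 26. Calling emx2 after thinning to 2000 UMIs turned RPL14 (ratio 0.98), arhgef49 (0.49) and the medians of polarity genes (-0.53) and Notch targets (0.60). It also turned the medians of apoptosis (-0.55), guidance and adhesion (-0.26) and Wnt and Fgf signalling genes (0.10). Medians of early hair cell (0.03), support cell (0.03), cilium (-0.02) and nuclear oxidative phosphorylation genes (-0.004) changed sign as well. The same call brought SPAG6 to 1.69 and FRMD4B (ENSDARG00000074599) to 1.74, and moved homeobox genes to a median log2 ratio of -0.37. Of 4390 genes measured under it, 542 (12.3%) were higher and 1203 (27.4%) lower. With 3 or more emx2 UMIs against 0, medians were -0.43 for homeobox genes, -0.73 for the 16 hair cell transcription factors measured there, -0.45 for cilium and -0.22 for ribosomal protein genes; with 1 or 2 UMIs, Notch targets had -0.85. DESeq2 size factors gave ribosomal protein genes -0.12. Plate 4 alone gave 254 genes higher and 357 lower of 1903 measured, with 0.25 for stress and -0.25 for mitochondrial genome genes, and zero cells matched in depth gave apoptosis genes 0.54. A minimum of 5 UMIs per gene gave 1216 (19.2%) higher and 1308 (20.6%) lower of 6341 genes. At 20 UMIs the counts were 228 (8.73%) and 244 (9.34%) of 2613, and with no minimum 2842 (26.3%) and 3360 (31.1%) of 10812. The share of cells with emx2 was 15.22% at 1000 and 28.1% at 2000 UMIs. The median depth with emx2 over that without was 1.08, and 0.98 on plate 2 alone. On plate 4 the sides were further apart, with medians of 4320 UMIs with emx2 and 3467 without. Depth limits the emx2 call itself: a cell at 0 may hold the transcript. Choices added after the data were seen were the class of 1 or 2 UMIs and leaving out cells high in spike-ins or support cell genes.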

Other observations

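Genes of cell cycle exit and early hair cells leaned below 1 over both plates in mutant-labelled cells with emx2, but not on each plate or in each setting. CDKN1B, a cell cycle inhibitor, had 141 CPM with emx2 and 218 CPM without, a ratio of 0.65 (0.41 to 1), and in wild type 0.50 (0.31 to 0.81). Another inhibitor gene, cdkn1ca, had 51.4 and 109 CPM with and without emx2, a ratio of 0.47 (0.22 to 0.93), with 0.44 on plate 2 and 1.21 on plate 4. BTG2, a gene that slows division, had 0.65 (0.40 to 1.02). Of the 7 measured genes of this list, 2 were above and 5 below 1, where 52.1% of all genes were below. On both plates 1 was above 1 and 1 below, against 21.2% and 25.1% of all genes. The log2 ratios of the 7 genes had a median of -0.61 (-1.26 to 0.51), or 0.03 when emx2 was called after thinning to 2000 UMIs. Over the same 7 genes the median was -0.18 on plate 2 and 0.14 on plate 4.

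BDNF, a growth factor for the neurons that contact hair cells, had 775 CPM in mutant-labelled cells with emx2 and 648 CPM in those without, a ratio of 1.2 (0.97 to 1.47), at 1.2 for plate 2 and 1.24 for plate 4. In wild type its ratio was 0.65 (0.52 to 0.81). SPRY4, a feedback inhibitor of Fgf signalling, had 22 UMIs with emx2 and 10 without, a ratio of 2.94 (1.34 to 6.95), at 2.48 for plate 2 and 7.27 for plate 4, and 10 of its 22 UMIs were in 1 cell. Among actin-binding genes, GSN, which severs actin filaments, had 4 UMIs with emx2 and 26 without, a ratio of 0.21 (0.05 to 0.59), with 0.13 on plate 2 and 0.48 on plate 4.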
